A study of Mus musculus with 6 samples.

Results

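Chemokines are small secreted or membrane-bound proteins that attract leukocytes, and 10 of their genes were followed here in cultured tumor cells: Cxcl1, Cxcl2, Cxcl5, Cxcl10, Cxcl12, Cxcl16, Ccl2, Ccl7, Ccl20 and Cx3cl1. They were found by gene name among the 34745 genes of the count tables, and each name matched a single row. The cells were 889, a murine lung cancer line that the labels place in lung tissue of strain C57BL/6. RNA from 3 replicates with a control sgRNA (sg-con) was compared with RNA from 3 replicates labelled as kiaa1522-downregulated (sg-kiaa1522), and per the methods sgRNAs were delivered to the cells by lentivirus with Cas9. The control sgRNA came from a plasmid against EGFP, and which of the kiaa1522 sgRNAs the sequenced cells carried is not given in the sources used here. No cytokine treatment is named in the labels. The sources do not say whether the replicates came from separate transductions, so the p-values measure the spread between these replicates, which may be technical.

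The libraries held between 12220001 and 18609376 counts, the shallowest being sg-kiaa1522 replicate 1. The targeted gene kiaa1522, listed as C77080, was not lower but higher in the libraries labelled sg-kiaa1522, with 209 ± 6.35 against 126 ± 2.92 CPM (SD, n = 3), the counts relative to library size after TMM scaling. Each direction given here therefore refers to the label of a library and not to a measured loss of kiaa1522 mRNA. Of the markers of an epithelial cell, Krt8, Krt18, Krt19 and Cdh1 were abundant, whereas Epcam had 0 counts in each library and Cldn7 had at most 1. The 6 lung epithelial markers summed to between 43.2 and 97.2 CPM in sg-con and between 24.6 and 61.0 CPM in the other group, which overlapped. Sftpb was lower among them (log2 fold change -0.67, adjusted p = 0.012, edgeR), and single libraries stood apart, as for Scgb1a1 with 293, 31 and 42 counts in sg-con and Nkx2-1 with 970, 1096 and 227 against 132, 174 and 671. The 8 leukocyte markers summed to between 1.29 and 2.68 CPM in sg-con and between 10.1 and 13.0 CPM in the libraries labelled sg-kiaa1522. Cd68, a lysosomal protein of macrophages and other cells, accounted for this with a log2 fold change of 3.23 (adjusted p = 2.0e-05, edgeR), while Adgre1, Cd3e and Ly6g were at 0 and Ptprc had at most 14 counts. The 7 fibroblast markers summed to between 464 and 484 CPM in sg-con and between 166 and 197 CPM in the other group, led by Col1a2 (log2 fold change -1.46). Col1a1 and Pdgfrb were also lower, with log2 fold changes of -1.99 and -0.72. Thy1 was at 0, Dcn and Lum had at most 2 counts, and Pdgfra had 3, 1 and 5 against 0, 3 and 7. The 5 endothelial markers summed to between 3.64 and 5.43 CPM and, in the other group, between 9.38 and 11.7 CPM, with Vwf at a log2 fold change of 1.59. Vwf alone made up this difference, since Cdh5 had 4, 0 and 5 counts in sg-con and 0 in the other group, Kdr and Tek had at most 5 in any library, and Pecam1 overlapped between the groups. All 4 tested epithelial markers were lower at an adjusted p of at most 0.05, as were 26.3% of all tested genes, Cdh1 with a log2 fold change of -1.45 and Krt18, whose groups overlapped, with one of -0.19 (adjusted p = 0.0496, edgeR). The part of these changes in the chemokine values was not tested. In RNA of a whole culture, fewer cells expressing a gene and less RNA per cell cannot be told apart.

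Chemokines are grouped by the spacing of the cysteines near their start, and each acts through G-protein-coupled receptors on the cells it attracts. CXC chemokines such as CXCL1, CXCL2 and CXCL5 recruit neutrophils through CXCR2, CXCL10 recruits activated T cells through CXCR3, and CC chemokines such as CCL2 and CCL7 recruit monocytes through CCR2. In epithelial and tumor cells many of these genes are known targets of NFκB, the transcription factor that TNFα activates, and CXCL10 is also a classical interferon target. CXCL16 and CX3CL1 differ from the others in having a membrane anchor, from which the proteases ADAM10 and ADAM17 can release them.

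The stretches upstream of Cxcl1, Cxcl2 and Cxcl10 are printed because these genes lie on the same chromosome and share NFκB-type letters but did not change alike. They are the 250 bases before the RefSeq start of each gene, 5′ to 3′ on the gene's strand in build GRCm38.p6, and capitals mark matches on either strand to the kB motif, GGGA and TTCC with any 2 bases between them.
Cxcl1, chr5:90890995-90891244, plus strand: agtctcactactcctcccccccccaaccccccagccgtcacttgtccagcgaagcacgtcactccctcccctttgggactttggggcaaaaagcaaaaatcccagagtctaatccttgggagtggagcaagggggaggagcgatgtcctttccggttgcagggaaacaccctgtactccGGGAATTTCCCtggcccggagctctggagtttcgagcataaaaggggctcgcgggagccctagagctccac
Cxcl2, chr5:90903649-90903898, plus strand: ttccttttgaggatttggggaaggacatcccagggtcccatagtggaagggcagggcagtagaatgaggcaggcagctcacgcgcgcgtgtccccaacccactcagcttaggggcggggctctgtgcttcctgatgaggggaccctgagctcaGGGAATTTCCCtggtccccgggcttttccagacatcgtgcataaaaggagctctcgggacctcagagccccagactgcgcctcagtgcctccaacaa
Cxcl10, chr5:92348890-92349139, minus strand: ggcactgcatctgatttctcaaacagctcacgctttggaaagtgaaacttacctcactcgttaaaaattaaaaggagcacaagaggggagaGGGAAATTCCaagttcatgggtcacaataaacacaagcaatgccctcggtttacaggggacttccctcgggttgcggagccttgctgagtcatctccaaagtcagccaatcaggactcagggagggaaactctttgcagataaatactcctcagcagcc
Cxcl1 and Cxcl2 hold the same 11 bases, GGGAATTTCCC, in which matches on the opposite strands overlap, beginning at base -71 of Cxcl1 and base -97 of Cxcl2. The run gggaatttccctgg around it was the longest that these 2 stretches shared. Cxcl10 matches the motif at base -159 with GGGAAATTCC.

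RefSeq windows that reach from 250 bases before to 50 bases after the start were matched by symbol for 6 of the 10 genes, Cxcl1, Cxcl2, Cxcl10, Cxcl12, Ccl20 and Cx3cl1. The kB motif on either strand occurred in 1.47% of all 32851 such windows, and GGGAATTTCCC in 12 of them. An AP-1 motif (TGANTCA, found in 7.81% of windows) and a motif of interferon regulatory factors (GAAA, any 2 bases and GAAA again, 3.44%) occurred in Cxcl10 alone among the 6, at bases -74 and -213. The windows of Cxcl12, Ccl20 and Cx3cl1 held none of these 3 motifs, which says only that these letters are absent there. Cxcl1 and Cxcl2 had 54.3% identical bases over their aligned windows, and the other 14 pairs had between 43.5% and 50.9%. These matches are descriptions of sequence, and binding was not measured.

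Most of the chemokine genes with measurable RNA were lower in the libraries labelled sg-kiaa1522. Of the 10 genes, 4 passed the filter of more than 500 counts over the 6 libraries, which left 10046 genes, and each of these 4 was called lower, which needed an adjusted p no larger than 0.05 together with a log2 fold change of -1 or below. In the same edgeR quasi-likelihood test 4.34% of all tested genes were lower by this rule and 2.74% were higher. Cxcl1, Cxcl16 and Ccl2 passed the filter through their sg-con counts alone, so the count of 4 is a description. Ccl2, with 696 counts in all, was the member just inside the filter and Cxcl2, with 307, the member just outside. The other 6 were read from the same test fitted to the 18499 genes with at least 1 count, in which 5.09% of the genes were lower and 4.15% higher by the same rule. The libraries of the groups did not overlap, and were lower with the kiaa1522 label, for 31.1% of the 10046 tested genes. In the fit without the filter Cxcl10, Ccl20 and Ccl7 were also lower, Cxcl2 and Cxcl5 were not called, and Cxcl12 was too scarce to compare.

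**Figure D1:**
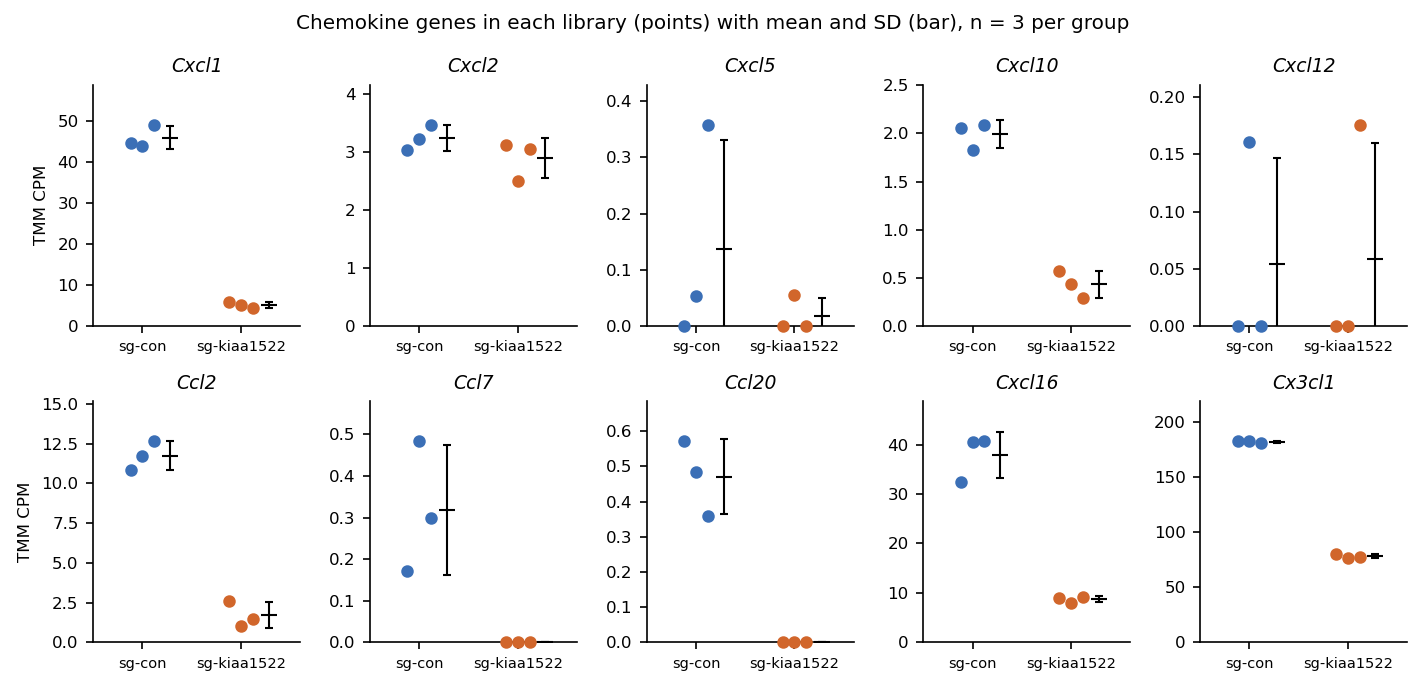
TMM-scaled CPM (vertical axes, each starting at 0) of the 10 chemokine genes in the 3 sg-con (blue) and 3 sg-kiaa1522 (orange) libraries, with the mean and SD beside each group, bars being clipped at 0. The groups are separate for 7 genes, Cxcl1 falling from 45.9 to 5.10 CPM, and overlap for Cxcl2, Cxcl5 and Cxcl12. Among all tested genes 31.1% were separate and lower, a share over genes past the filter, which Cxcl10, Ccl7 and Ccl20 did not pass.

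Of the neutrophil attractants with enough counts to rank, which leaves out Cxcl5 and Cxcl3, Cxcl1 changed most. This gene (ENSMUSG00000029380, chromosome 5 from 90891241 to 90893115 of GRCm38, plus strand, 4 exons in its coding transcript) had 784, 818 and 823 counts in sg-con, or 44.8, 43.9 and 49.1 CPM. The libraries labelled sg-kiaa1522 held 70, 96 and 74 counts, or 5.74, 5.21 and 4.34 CPM. Each of them thus lay far below the lowest sg-con library. Cxcl1 was 9.05-fold lower, with a log2 fold change of -3.18 (standard error 0.125, 95% interval -3.47 to -2.89, adjusted p = 8.4e-06, edgeR). Ranked by log2 fold change, this was fall 9 of the 10046 tested genes.

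Cxcl2, which encodes a close relative of CXCL1 with the same receptor, lies 10755 bases further along the plus strand (ENSMUSG00000058427, chromosome 5 from 90903871 to 90905938). It had 53, 60 and 58 counts in sg-con and 38, 46 and 52 in the libraries labelled sg-kiaa1522, that is, 3.03, 3.22 and 3.46 against 3.12, 2.50 and 3.05 CPM. The groups overlapped. The log2 fold change was -0.17 (95% interval -0.60 to 0.27, adjusted p = 0.54, edgeR), so a fall by a log2 of 1 lay outside the interval, whereas a small change in either direction did not. Within a library, Cxcl1 had 14.8, 13.6 and 14.2 times the counts of Cxcl2 in sg-con and 1.84, 2.09 and 1.42 times in the libraries labelled sg-kiaa1522. This ratio needs no scaling between libraries, and its groups were apart (p = 0.1 by an exact permutation test, two-sided, where 3 against 3 libraries can give no smaller p). These neighbouring genes with the same GGGAATTTCCC upstream therefore differed in their change.

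Cxcl5, the third neutrophil attractant (ENSMUSG00000029371, chromosome 5 from 90759360 to 90761624), was close to undetected. It had 0, 1 and 6 counts in sg-con and 0, 1 and 0 in the libraries labelled sg-kiaa1522. Most of these counts came from sg-con replicate 3. The pooled ratio of sg-con to sg-kiaa1522 was 6.31 with an exact 95% counting interval from 0.811 to 284, and no difference was detectable at this depth (adjusted p = 0.31, edgeR).

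The remaining genes of the same cluster on chromosome 5 were scarce as well. Cxcl3, which encodes another CXCR2 ligand, had 15, 9 and 11 counts in sg-con and 1, 1 and 4 in the libraries labelled sg-kiaa1522. It was picked out after its values were seen, and its adjusted p of 0.014 (edgeR) rose to 0.054 without sg-kiaa1522 replicate 2, while its log2 fold change of -2.33 became -3.20 without sg-kiaa1522 replicate 3. Cxcl15, the gene of a lung epithelial chemokine, had 31, 23 and 20 counts against 4, 6 and 1. Its log2 fold change was -2.55 (adjusted p = 0.0016, edgeR). Pf4 and Ppbp, the platelet chemokine genes between Cxcl5 and Cxcl3, had at most 4 counts in any library. Mthfd2l, an enzyme gene of folate metabolism and the nearest tested gene beyond Cxcl2, had 14.6 ± 1.40 and 13.9 ± 0.628 CPM (SD, n = 3, log2 fold change -0.07, adjusted p = 0.59, edgeR). On chromosome 5 as a whole the median over tested genes was 0.014 on the log2 scale, against -0.0067 for all tested genes.

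**Figure D2:**
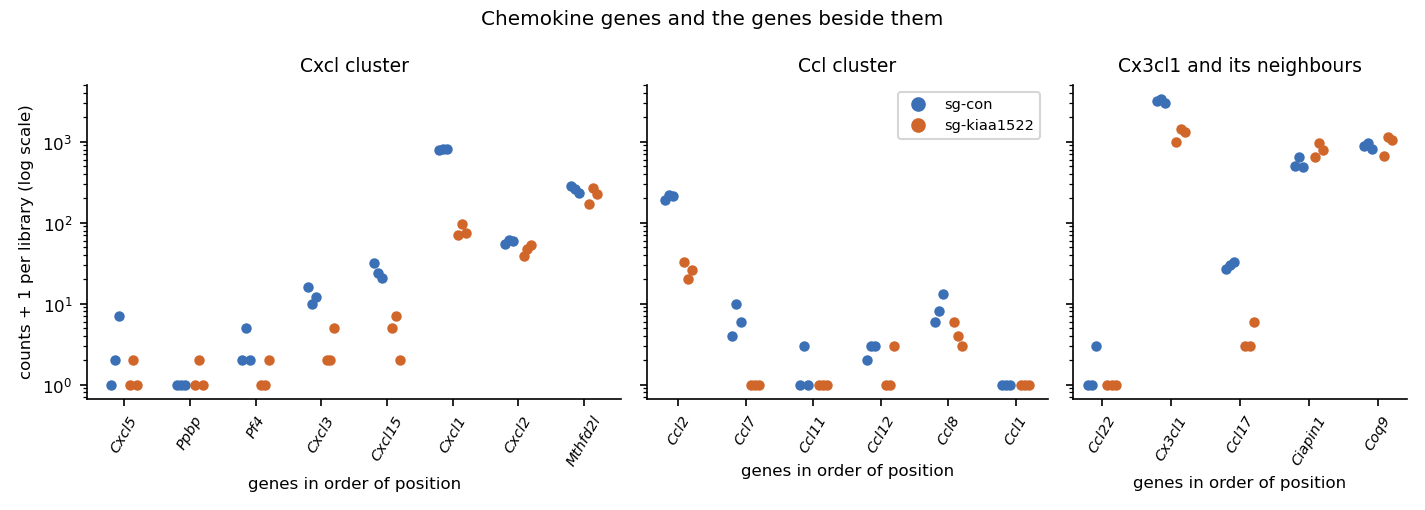
Counts plus 1 in each library (log scale) for genes in the order in which they lie in the Cxcl cluster, in the Ccl cluster and around Cx3cl1, not scaled for depth. Blue points are sg-con and orange points sg-kiaa1522 libraries. Cxcl3, Cxcl15 and Cxcl1 are separate between the groups while Cxcl2 and Mthfd2l are close, and Ccl17 falls beside Cx3cl1 while Ciapin1 does not.

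Cxcl10, a T-cell attractant, was low but separate between the groups. It had 36, 34 and 35 counts in sg-con and 7, 8 and 5 in the libraries labelled sg-kiaa1522 (ENSMUSG00000034855, chromosome 5 from 92346638 to 92348889, minus strand). In CPM this was 2.06, 1.83 and 2.09 against 0.574, 0.434 and 0.293, so that every library labelled sg-kiaa1522 was below every sg-con library. Cxcl10 was 4.62-fold lower, or -2.21 on the log2 scale (standard error 0.341, 95% interval -2.95 to -1.47, adjusted p = 3.0e-04, edgeR without the filter). Art3, an antisense gene that overlaps 5.91% of its exon bases, had at most 5 counts, and the sources do not say whether strand was used in counting. Sdad1 and Nup54, the nearest tested genes on either side, had log2 fold changes of 0.41 and 0.05. The other CXCR3 ligand genes, Cxcl9 and Cxcl11, had at most 4 and 1 counts in any library.

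Cxcl12, whose product signals through CXCR4 and binds ACKR3, was scarce in both groups. It had 0, 3 and 0 counts in sg-con and 0, 0 and 3 in the libraries labelled sg-kiaa1522, that is, 3 over each group, so no fold is given (ENSMUSG00000061353, chromosome 6 from 117168535 to 117181367).

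The monocyte attractants were lower. Ccl2 (ENSMUSG00000035385, chromosome 11 from 82035571 to 82037453, plus strand, 3 exons) had 190, 218 and 212 counts in sg-con and 32, 19 and 25 in the libraries labelled sg-kiaa1522. These were 10.9, 11.7 and 12.7 CPM against 2.62, 1.03 and 1.47 CPM. The groups were well apart, although the lower group varied 2.54-fold within itself. Ccl2 was 7.15-fold lower, a log2 fold change of -2.84 (standard error 0.277, 95% interval -3.48 to -2.19, adjusted p = 2.0e-04, edgeR). Without sg-con replicate 2 or replicate 3 only 478 or 484 counts were left and Ccl2 missed the filter.

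Ccl7, a related CCR2 ligand gene that begins 8258 bases beyond Ccl2 (ENSMUSG00000035373, chromosome 11 from 82045712 to 82047525), had 3, 9 and 5 counts in sg-con and 0 in each library labelled sg-kiaa1522. With the lower group set to the floor of 3 counts over the group, Ccl7 was 5.11-fold lower, and the exact 95% counting interval of the ratio began at 3.72-fold. Its adjusted p was 0.014 (edgeR without the filter), 0.060 once replicate numbers were fitted as a block, and 0.065 without sg-con replicate 2, so this call rests on few counts. Next in this cluster, Ccl11, Ccl12 and Ccl8, further attractants of monocytes and eosinophils, had at most 2, 2 and 12 counts in any library. Over all tested genes of chromosome 11 the median was -0.015 on the log2 scale.

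Ccl20, which attracts CCR6-bearing lymphocytes and dendritic cells, showed the same pattern of loss. It had 10, 9 and 6 counts in sg-con and 0 in each library labelled sg-kiaa1522 (ENSMUSG00000026166, chromosome 1 from 83116766 to 83119167, plus strand). Against the floor of 3 counts over the group it was 7.51-fold lower (adjusted p = 0.0035, edgeR without the filter), with a counting interval that began at 5.67-fold. Even in sg-con its level was 0.471 ± 0.107 CPM (SD, n = 3).

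The membrane-anchored chemokines were also lower, and Cx3cl1 was the most abundant gene of the 10. Cx3cl1, or fractalkine (ENSMUSG00000031778, chromosome 8 from 94772009 to 94782427, plus strand), had 3194, 3395 and 3026 counts in sg-con and 979, 1418 and 1326 in the libraries labelled sg-kiaa1522. After scaling, its values were nearly constant within a group, with 182, 182 and 181 CPM against 80.3, 77.0 and 77.7 CPM. Cx3cl1 was 2.32-fold lower, a log2 fold change of -1.21 (standard error 0.0549, 95% interval -1.34 to -1.09, adjusted p = 1.5e-05, edgeR). Ccl17, which encodes a T-cell attractant and lies just beyond Cx3cl1, had 26, 29 and 32 counts in sg-con and 2, 2 and 5 in the other group. Its log2 fold change was -3.07 (adjusted p = 1.6e-04, edgeR without the filter), whereas Ciapin1, the nearest tested gene on that side, rose (log2 fold change 0.69, adjusted p = 0.0014, edgeR) and Arl2bp on the other side had a value of -0.0043.

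Cxcl16 (ENSMUSG00000018920, chromosome 11 from 70453983 to 70459984, minus strand, 5 exons) had 568, 756 and 681 counts in sg-con and 110, 148 and 156 in the libraries labelled sg-kiaa1522. In CPM, 32.4, 40.6 and 40.7 stood against 9.02, 8.04 and 9.14, with no overlap. It was 4.34-fold lower, with -2.12 on the log2 scale (standard error 0.125, 95% interval -2.41 to -1.83, adjusted p = 3.3e-05, edgeR). Zmynd15, an antisense gene, overlaps 18.3% of its exon bases and had at most 16 counts. Between the nearest edges of Cxcl16 and Med11 lie 255 bases. Med11 had a log2 fold change of -1.01 (adjusted p = 0.018, edgeR), and one of -0.62 without sg-con replicate 3. Its adjusted p was 0.064 without sg-kiaa1522 replicate 2 (edgeR). Cx3cl1 had between 4.44 and 5.62 times the counts of Cxcl16 in sg-con and between 8.50 and 9.58 times in the libraries labelled sg-kiaa1522 (p = 0.1 by the same exact permutation test), so these genes fell by unequal amounts.

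**Figure D3:**
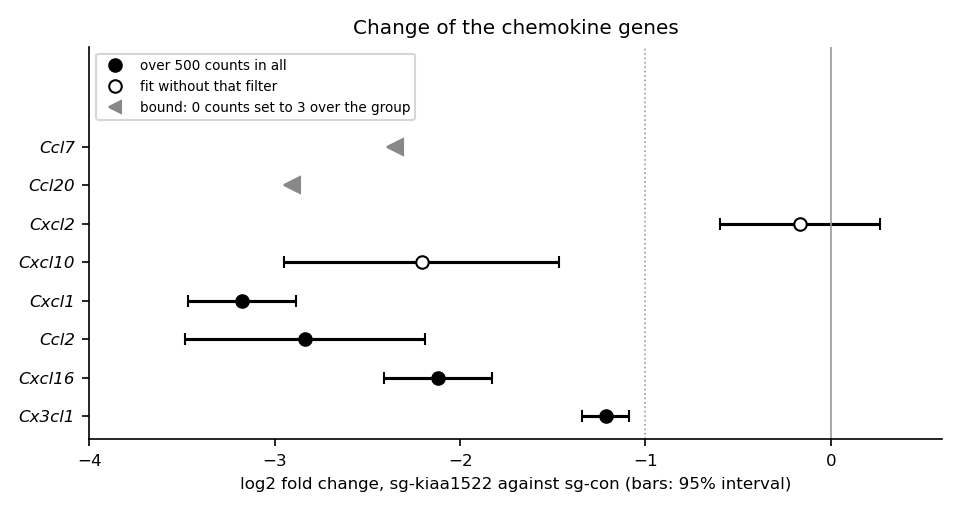
log2 fold change (horizontal axis, sg-kiaa1522 against sg-con) of 8 chemokine genes (Cxcl5 and Cxcl12 are not drawn) with 95% intervals, filled points from the fit with the filter and open points from the fit without it. Triangles, labelled as bounds, mark the fold with 0 counts in the libraries labelled sg-kiaa1522 set to the floor of 3 over the group. They are not limits of an interval, and the dotted line marks -1. Among the genes with a point estimate Cxcl1 lies lowest at -3.18 and, of the intervals drawn, only that of Cxcl2, from -0.60 to 0.27, includes 0.

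To compare genes with each other, counts were divided by the summed exon length and scaled to the same total in every library (TPM). In sg-con the order of these levels was Cx3cl1 at 119 ± 3.05 TPM, Cxcl1 at 63.1 ± 3.61, Cxcl16 at 32.3 ± 3.36, Ccl2 at 26.6 (between 25.2 and 28.3), Cxcl2 at 4.03 ± 0.207 and Cxcl10 at 2.28 ± 0.191 (SD, n = 3). Ccl7 at 1.02 ± 0.487 and Ccl20 at 0.856 ± 0.210 TPM overlapped in their library values, as did Cxcl5 and Cxcl12 at the bottom. Cxcl16 and Ccl2 came close, the lowest Cxcl16 library (28.4 TPM) being next to the highest Ccl2 library (28.3 TPM). In the libraries labelled sg-kiaa1522 Cx3cl1 remained first at 54.8 ± 1.46 TPM. Cxcl16 (7.95 ± 0.653 TPM) and Cxcl1 (7.46 ± 0.959 TPM) then overlapped, and so did Ccl2 (4.12 ± 1.98 TPM) and Cxcl2 (3.84 ± 0.489 TPM). The level of Cx3cl1 relative to Cxcl1 in sg-con depended on the length used, being 1.89 ± 0.121-fold with summed exons (SD, n = 3) and 5.76-fold with the mean transcript length.

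Receptors through which these chemokines act were almost silent in the tumor cells. Of 18 signaling receptor genes none passed the filter, 9 had 0 counts in each library, and 15 had at most 3 counts in any library. Cxcr3 and Cxcr6, the receptors for CXCL10 and CXCL16, were at 0 throughout. Cxcr2, Cxcr4, Ccr6 and Cx3cr1 had at most 3, 2, 2 and 2 counts, and Ccr2 at most 4. Ccr7, which guides lymphocytes and some tumor cells to lymph nodes, was the exception, with 2, 14 and 4 counts in sg-con and 33, 45 and 48 in the libraries labelled sg-kiaa1522 (log2 fold change 2.80, adjusted p = 4.0e-04, edgeR without the filter). Without sg-con replicate 2, which held most of its sg-con counts, the log2 fold change was 3.87. Ackr3, an atypical receptor that takes up CXCL12 without G-protein signaling, was the expressed one. It had 861, 903 and 834 counts in sg-con and 286, 475 and 400 in the libraries labelled sg-kiaa1522, a log2 fold change of -1.02 (adjusted p = 8.5e-05, edgeR). Without sg-kiaa1522 replicate 1 or replicate 3 the value came to -0.996 or -0.994, just short of the fold threshold.

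Among the 28 other chemokine genes of the list, Ccl25 alone passed the filter. Ccl25, whose product attracts thymocytes and gut lymphocytes, was higher, with 113, 102 and 96 counts against 123, 155 and 140 (log2 fold change 0.59, adjusted p = 0.0095, edgeR). Of the untested genes, Ccl4 had 19, 27 and 20 against 16, 25 and 25 counts, Ccl5 had 25, 19 and 23 against 11, 20 and 15, and Ccl3 had 14, 9 and 17 against 7, 13 and 12. The groups overlapped for each of these, with log2 fold changes of 0.15, -0.39 and -0.18 and adjusted p of 0.70, 0.38 and 0.76 (edgeR without the filter). Ccl9, with 9, 17 and 28 against 7, 9 and 6 counts, also overlapped (log2 fold change -1.13, adjusted p = 0.10, edgeR without the filter). Of the 27 untested genes, Cxcl3, Cxcl15 and Ccl17, which were named after their values were seen, were the 3 called in that fit, all lower, where 5.09% of the 18499 genes were lower and 4.15% higher.

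The proteases that shed the anchored chemokines differed from each other. Adam10 had 8706, 3258 and 6713 counts in sg-con and 1641, 2667 and 2368 in the libraries labelled sg-kiaa1522. The spread within sg-con was wide and the groups still did not overlap. On the log2 scale Adam10 changed by -1.36 (adjusted p = 0.010, edgeR, standard error 0.33), and by between -1.70 and -1.05 with each library left out in turn. Adam17 had a log2 fold change of -0.14 (adjusted p = 0.23, edgeR). The list also held Rhbdf1 and Rhbdf2, which encode inactive rhomboid partners of ADAM17 and not proteases, with log2 fold changes of 0.53 (adjusted p = 9.8e-04, edgeR) and 0.06. Of its 4 tested genes 1 was lower, Adam10, and 1 was higher, Rhbdf1, at an adjusted p of at most 0.05, where 26.3% of all tested genes were lower and 26.3% higher.

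Known inducers of these genes were scarce as RNA, while their receptors were expressed. Tnf and Il1a had at most 3 and 2 counts in any library, Il1b had between 8 and 12, Ifng at most 1, and Il17a had 0. Of the 8 tested genes in this list, all receptors, 5 were lower and 0 higher at an adjusted p of at most 0.05 (26.3% and 26.3% of all tested genes), with a median log2 fold change of -0.38. At an unadjusted p under 0.05 the count of higher genes was also 0 in edgeR, and in DESeq2 it was 0 as well. Il1r1, the signaling receptor of interleukin-1, had a log2 fold change of -0.83 (adjusted p = 2.1e-04, edgeR) and Ifngr2, a chain of the interferon-γ receptor, one of -0.62 (adjusted p = 1.9e-04, edgeR). The TNF receptors Tnfrsf1a and Tnfrsf1b had log2 fold changes of -0.0013 and -0.12 and were not called.

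Of 14 tested genes that control NFκB, 2 were lower and 1 was higher past the fold threshold, where 4.34% and 2.74% of all tested genes were. At any fold, 4 were lower and 5 were higher at an adjusted p of at most 0.05, where the shares over all tested genes were 26.3% in each direction, with a median log2 fold change of 0.096. The lower ones were Nfkbie (IκBε, log2 fold change -1.42), Bcl3 (-1.23), Nfkbiz (-0.78) and Nfkbia (IκBα, -0.61). The higher ones were Chuk (IKKα, 1.02), Ikbkg (NEMO, 0.59), Rela (p65, 0.52), Ikbkb (IKKβ, 0.34) and Nfkb2 (0.26). The 5 not called were Rel (0.34), Nfkbib (0.29), Relb (-0.07), Nfkb1 (-0.09) and Tnfaip3 (-0.77). Chuk fell short of a log2 fold change of 1 without sg-con replicate 2, sg-con replicate 3 or sg-kiaa1522 replicate 3, with values of 0.98, 0.92 and 0.93.

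Genes for proteins that control the decay of chemokine mRNA were also followed. Of 8 tested, 3 were lower and 3 higher at an adjusted p of at most 0.05, beside 26.3% of all tested genes each way, and the median log2 fold change was -0.045. Zc3h12a, the gene of the endonuclease Regnase-1, fell (log2 fold change -1.30, adjusted p = 8.0e-05, edgeR), as did Zfp36, the gene of tristetraprolin (-0.62). Zfp36l1, whose product belongs to the same family of AU-rich element binding proteins, rose (1.16, adjusted p = 6.8e-05, edgeR).

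Irf3, the gene of an interferon regulatory factor, had a log2 fold change of -0.28 (adjusted p = 0.046, edgeR), and this passed 0.05 in few other settings, with adjusted p between 0.010 and 0.15. All these lists and the chemokine genes were fixed with results of the data already known.

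**Figure D4:**
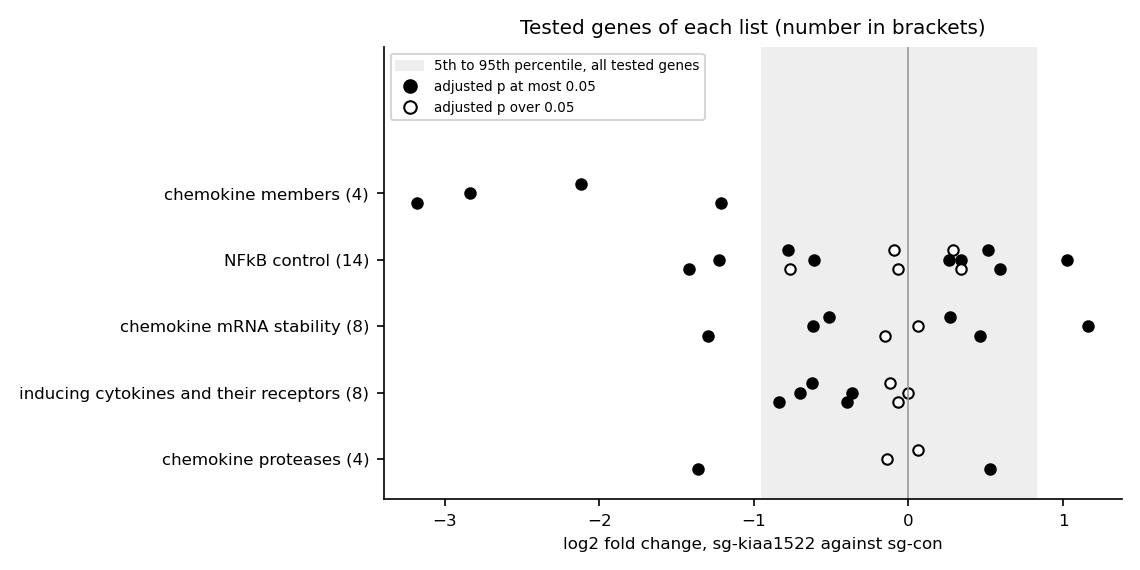
log2 fold change (horizontal axis) of each tested gene in the chemokine list and in 4 lists of genes that control or process chemokines. Filled points have an adjusted p of at most 0.05 and the grey band spans the 5th to the 95th percentile of all tested genes, from -0.95 to 0.82. The 4 tested chemokine genes lie left of the band while the NFκB and mRNA stability lists have filled points on both sides of 0.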

How the data were processed

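RNA of the 889 cells was sequenced on an Illumina platform in 3 sg-con and 3 sg-kiaa1522 libraries. The authors used Seqtk to remove adaptors and rRNA, aligned reads to GRCm38 (Hisat2 2.0.4) and took fragments with a unique position as the count of a gene (Stringtie 1.3.0). The deposited values are these counts, not normalized. Genes with near-identical copies can be undercounted in this way, and strand use is not given in the sources used here.

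A gene was tested where its 6 libraries summed to over 500 counts (10046 genes, holding between 99.5% and 99.6% of the counts of each library), with edgeR's quasi-likelihood test after TMM scaling (factors between 0.990 and 1.01) with Benjamini-Hochberg adjustment, without covariates. As in the study's methods, calls had an adjusted p up to 0.05 and a log2 fold change of 1 or more in either direction. CPM used the full library totals. The floor for genes without counts was 3 counts over the group, and it and the counting intervals cover counting error only. TPM used summed exons of GENCODE M21, to which 34344 of the 34745 identifiers matched. Promoter windows came from RefSeq, GRCm38.p6.

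R 4.3.3, edgeR 4.0.16 and DESeq2 1.42.0 were used, and the fits were tested on simulated data. Alternatives were RLE or library-size scaling, 2 other filters, DESeq2, edgeR's exact test, the replicate number as a block, each library left out, no fold threshold and another gene length. No library repeats another of its group (chi-square of 12.3 or more for each degree of freedom). The genes named are the 10 chemokine genes, their receptors, Adam10 and Adam17, overlapping genes, kiaa1522, and in each list the genes past the threshold or, failing that, those with the smallest p. Others, such as Cxcl3, members of a cluster and nearest neighbours, were added after their values were seen. Some genes of the lists are not reported here. The members and lists were chosen with earlier results of these data known.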

Additional observations from a re-analysis of the deposited data

How the results depend on the processing

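Over 37 genes named with a fit, 447 of 460 alternative log2 fold changes kept their direction and their side of an adjusted p of 0.05. Another 13 moved to an adjusted p over 0.05 and 0 reversed (edgeR, or DESeq2 as one setting). Those 13 were of Ccl7, Cxcl3, Irf3 and Med11. In some settings Ackr3, Chuk and Med11 fell short of the fold threshold. The calls of Cxcl1, Cxcl10, Cxcl16, Ccl2, Ccl20 and Cx3cl1 held in each alternative in which they were tested, and Cxcl1 stayed between -3.26 and -3.07. Genes called lower numbered 436, and 812 with filterByExpr, 941 with at least 1 count, 2639 without a fold threshold, and between 366 and 456 with a library left out. Genes called higher numbered 275, and 607, 767, 2638 and between 226 and 338 in the same order. The 4 chemokine genes called lower became 7 with at least 1 count, as more genes were tested, and between 3 and 4 with a library left out, where Ccl2 missed the filter. The level of Cx3cl1 over Cxcl1 in sg-con moved from 1.89 to 5.76 with the mean transcript length. With the replicate block 434 genes were lower and 285 higher, 426 and 275 of them shared with the fit without it. Same-numbered libraries deviated from their group means with correlations across genes of -0.23, -0.053 and -0.17, and 0 of 3 sg-con libraries correlated best with its own number. With 3 libraries in each group, these values cannot show whether same-numbered libraries shared a culture or day. Members with at most 36 counts in a library are limited by depth.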
